A study of Homo sapiens with 9 samples.

Results

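The 43 genes described here are the ATF4 stress and amino acid supply genes: transcription factors and effectors of the ATF4 pathway, enzymes that make amino acids, amino acid transporters and cytosolic tRNA synthetases. They were chosen by name, with earlier results of these data known, and each of the 43 symbols was found once among the 25593 loci of every library. All 43 passed the filter on low values, so all 43 are among the 13216 genes tested. The cells were neural crest-like progeny of H9, a long-established line of human embryonic stem cells, and RNA was sequenced from 9 cultures. All cultures began alike, with 6 days in a chemically defined medium containing 10 µM SB431542, a small molecule that blocks the type I receptors of TGF-β, Activin and Nodal. CD271-high, CD73-negative cells were then sorted, although the samples' cell type label calls them positive for CD73, and were expanded on fibronectin under 5% oxygen. Group F (3 cultures) was expanded with 5 to 10 ng/ml of the growth factor FGF2, and group FSB (3 cultures) with that FGF2 and 3 to 5 µM SB431542. Group F_FSB (3 cultures) spent 4 passages in FSB and then 3 more in F. All were harvested at passage 6 to 7 and derive from 1 cell line. The submitters call the 3 cultures of a group biological replicates without saying whether they came from separate differentiations, so p-values measure the spread between these cultures, and the labels do not say which FSB and F_FSB cultures were split from the same cells.

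ATF4 is a transcription factor whose protein is made preferentially when the initiation factor eIF2 is phosphorylated, as happens during amino acid shortage, endoplasmic reticulum stress, haem shortage or viral infection. It binds C/EBP-ATF response elements, usually with a C/EBP partner, and switches on genes that make or import amino acids and charge them onto tRNAs. Because this control acts largely on translation, the level of ATF4 messenger RNA is only a partial measure of the pathway. The pathway also serves growing cells, in which mTORC1 can raise ATF4 and with it the supply of serine, glycine and folate-bound carbon units.

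Sequences are shown first for the members whose promoter window holds the core of the C/EBP-ATF response element, because they let the measured changes be read beside the letters this factor is known to bind. RefSeq promoter windows (GRCh38.p14, 250 bases before to 50 after a transcription start) were matched for 34 of the 43 members. PSPH, SHMT2, ALDH1L2, PYCR1, SLC7A11, YARS, LARS, VARS and NUPR1 were not matched. The letters TGATGNAA, on either strand, lay in a window of 14 of the 34 members (41.2%), against 1217 of 27305 genes with a window (4.46%). Counted by window, the shares were 14 of 55 (25.5%) and 1270 of 35116 (3.62%). The members were chosen as genes of the ATF4 pathway and of amino acid supply, so their higher share is not an independent result. Each line below gives the gene, its strand-oriented sequence 5′ to 3′ with the match in capitals, and is followed by positions in the text; a match on the opposite strand appears as TTNCATCA.
ASNS: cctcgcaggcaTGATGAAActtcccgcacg
SLC7A1: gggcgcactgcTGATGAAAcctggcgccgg
SLC1A5: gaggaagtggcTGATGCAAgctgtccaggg
SLC1A4: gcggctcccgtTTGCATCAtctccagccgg
SLC3A2: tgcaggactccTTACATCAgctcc
TARS: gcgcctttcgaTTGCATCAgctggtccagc
CARS: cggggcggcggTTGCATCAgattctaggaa
MARS: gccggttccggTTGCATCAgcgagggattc
NARS: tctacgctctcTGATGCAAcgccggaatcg
GARS: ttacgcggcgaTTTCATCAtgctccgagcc
IARS: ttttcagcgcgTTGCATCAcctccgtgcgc
AARS: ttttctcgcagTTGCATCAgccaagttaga
ATF3: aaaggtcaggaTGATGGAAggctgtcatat
CHAC1: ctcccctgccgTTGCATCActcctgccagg

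The ASNS match lay at positions -68 to -61 from the start of transcription (window chr7:97872458-97872487, minus strand). The SLC7A1 match lay at 8 to 15 (chr13:29595663-29595692, minus strand) and the SLC1A5 match at -97 to -90 (chr19:46784893-46784922, minus strand). Of the tRNA synthetases, TARS (chr5:33440956-33440985, plus strand, 3 to 10), CARS (chr11:3057407-3057436, minus strand, -2 to 6) and MARS (chr12:57488053-57488082, plus strand, -4 to 4) held the match within 10 bases of the start. The match lay at -7 to 1 in SLC1A4, 38 to 45 in SLC3A2, 15 to 22 in NARS, -33 to -26 in GARS and -13 to -6 in IARS. It lay farthest out in AARS (-187 to -180), ATF3 (-191 to -184) and CHAC1 (-209 to -202). In the members that were higher in FSB than in F, 12 of 25 with a window held the letters, and in the other members 2 of 9 did (AARS and IARS). The letters did not go with the size of the rise. Of the largest increases given below, ASNS held them, CBS, SLC7A5, PSAT1 and PHGDH had windows without them, and SLC7A11 had no window. The full endoplasmic reticulum stress element, CCAAT and CCACG separated by 9 bases, was in a window of 0 of the 34 members and of 0.0916% of all genes. The cyclic AMP response element TGACGTCA was in 0 of the 34 members and 2.25% of all genes. These are letter matches in windows of 300 bases, with no test, and no binding was measured.

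Most of the 43 genes were higher in the cultures kept in SB431542. Between FSB and F, 31 of 43 passed the test as higher (limma on log2(FPKM + 1), two-sided, adjusted p under 0.05), 3 as lower and 9 in neither direction. Over all genes tested the shares were 28.5% higher and 13.4% lower. The largest increases were in CBS of cysteine synthesis, the transporters SLC7A5 and SLC7A11, the serine enzymes PSAT1 and PHGDH, and the asparagine synthetase ASNS. The 3 lower members were the proline enzymes PYCR1 and ALDH18A1 and the stress-induced chromatin protein NUPR1. The groups' libraries did not overlap in 30 members that were higher (38.7% of all genes) and 3 that were lower (19.2% of all genes). The median change of the members was 0.79 on the log2 scale, beside 0.14 for all genes tested. Scaling each library by its median ratio moved the median of all genes to -0.0015 and that of the members to 0.68. Of the 43 members 24 were then higher and 3 lower, beside 2395 higher and 2489 lower of the 13216 genes tested. The share of higher among all calls went from 68.0% to 49.0%. After quantile normalization that share was 53.2%, with 27 members higher and 3 lower, beside 2636 and 2316 of all genes tested. With all libraries brought to the same FPKM sum it was 61.6%, with 26 members higher and 2 lower, beside 2286 and 1424. These are bulk cultures, in which a smaller share of cells of a type and less RNA per cell cannot be told apart.

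**Figure D1:**
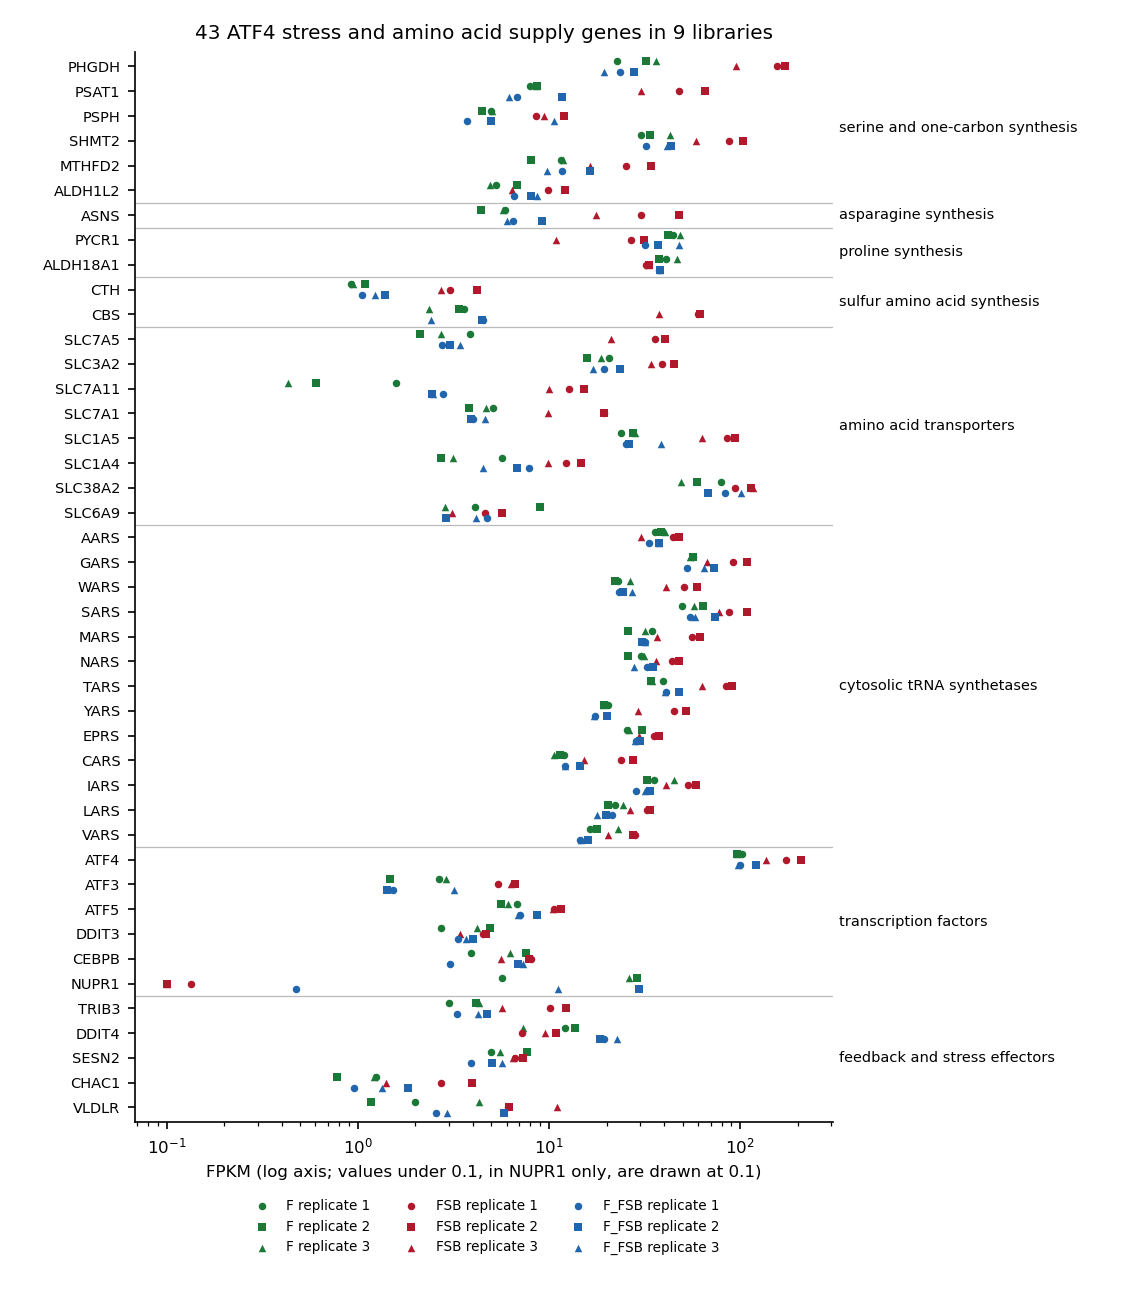
FPKM of each of the 43 members (rows, grouped by role) on a log axis in the 9 libraries, with F in green, FSB in red, F_FSB in blue and a marker shape for each replicate number. The FSB libraries stand to the right of the others in most rows of serine synthesis, transport and tRNA charging, and at the far left for NUPR1, where values under 0.1 are drawn at 0.1 and FSB replicates 2 and 3 coincide.

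ATF4 itself (chr22:39916569-39918691, GRCh37) had the highest FPKM, a value normalised to transcript length, of the members in 8 of the 9 libraries; SLC38A2 led in F_FSB replicate 3. It stood at 102, 96.7 and 96.1 FPKM in F, at 174, 208 and 137 in FSB and at 100, 121 and 98.0 in F_FSB. All 3 FSB cultures were above all 6 others. The change was 0.79 ± 0.15 (SE, log2 scale, n = 3 a group) from F to FSB, with a limma adjusted p of 0.00514, and -0.68 ± 0.15 after the move to F (limma adjusted p 0.00884). ATF3, which ATF4 induces and which feeds back on stress genes, ran from 1.46 to 2.90 FPKM in F, 5.43 to 6.62 in FSB and 1.42 to 3.20 in F_FSB, and rose by 1.12 ± 0.25 (SE). ATF5, another basic leucine zipper factor of the pathway, stood at 6.80, 5.58 and 6.07 FPKM in F, at 10.6, 11.6 and 10.5 in FSB and at 7.08, 8.66 and 6.87 in F_FSB. The 3 groups of ATF5 values did not overlap, with F_FSB between the others. Its locus shares 1030 bases with NUP62, and the strand setting of the quantification is not stated in the labels or notes.

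DDIT3 encodes CHOP, the factor of the pathway best known for promoting cell death under lasting stress. It stood at 2.74, 4.90 and 4.18 FPKM in F, at 4.54, 4.69 and 3.43 in FSB and at 3.34, 3.98 and 3.68 in F_FSB. The groups overlapped, and the change from F to FSB was 0.10, with a 95% interval of -0.31 to 0.51 and a limma adjusted p of 0.691. CEBPB, a C/EBP partner of ATF4, also overlapped between groups (5.62 to 8.03 FPKM in FSB, 3.90 to 7.62 in F, change 0.26, 95% interval -0.46 to 0.99). DDIT3 shares 68 bases with MARS, which reached 62.0 FPKM.

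NUPR1 (chr16:28548662-28550495, GRCh37) encodes a small nuclear protein induced by stress. It stood at 5.69, 28.8 and 26.3 FPKM in F, at 0.135, 0 and 0 in FSB and at 0.476, 29.7 and 11.1 in F_FSB. All FSB values lay below all others, and F_FSB replicate 1 was the lowest outside FSB. The fitted changes, -4.07 ± 1.03 (SE; limma adjusted p 0.0152) and 2.97 ± 1.03 (limma adjusted p 0.0487), depend on the pseudocount. The first was lost without F replicate 2 (limma adjusted p 0.0506). The second was lost in 12 of the 18 alternatives, among them without F replicate 2 or 3, any FSB replicate, or F_FSB replicate 2 or 3 (limma adjusted p 0.0595 to 0.126).

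The 6 members for serine synthesis and its folate-bound carbon were all higher in FSB than in F, beside 28.5% of all genes tested. PHGDH (chr1:120254419-120286849), which starts serine synthesis from a glycolytic intermediate, stood at 22.7, 32.1 and 36.1 FPKM in F, at 155, 171 and 95.6 in FSB and at 23.4, 27.8 and 19.3 in F_FSB. The lowest FSB culture held more than any culture of the other groups. The change was 2.16 ± 0.25 (SE) from F to FSB (limma adjusted p 0.00063) and -2.50 ± 0.25 from FSB to F_FSB (limma adjusted p 0.000367). PSAT1 (chr9:80912059-80945009), the next enzyme of the route, stood at 7.93, 8.65 and 8.58 FPKM in F, at 48, 65.1 and 30.2 in FSB and at 6.78, 11.7 and 6.17 in F_FSB. Its values in F and F_FSB overlapped and those in FSB stood apart, with a change of 2.31 ± 0.29 (SE; limma adjusted p 0.000852).

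The other 4 enzymes of this group rose by less. SHMT2, the mitochondrial enzyme that splits serine into glycine, rose by 1.17 (58.7 to 103 FPKM in FSB, 30.3 to 43.2 in F). MTHFD2, which oxidises the resulting folate, rose by 1.15 (16.3 to 34.3 FPKM in FSB, 8.08 to 11.9 in F). PSPH, the last step of serine synthesis, rose by 0.90 with a limma adjusted p of 0.0408, and the call was lost without any single F or FSB library (limma adjusted p 0.0705 to 0.129). ALDH1L2, a mitochondrial folate enzyme, rose by 0.62 with a limma adjusted p of 0.0479, overlapped between groups (6.39 to 12.2 FPKM in FSB, 4.94 to 6.78 in F), and lost the call when any single library other than FSB replicate 3 was left out (limma adjusted p 0.0503 to 0.150).

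ASNS (chr7:97481429-97501854), which makes asparagine and carries the promoter match at -68, stood at 5.86, 4.40 and 5.72 FPKM in F, at 30.4, 48 and 17.6 in FSB and at 6.47, 9.16 and 6.01 in F_FSB. FSB was above both other groups, and F_FSB lay just above F with no overlap. The change from F to FSB was 2.28 ± 0.32 (SE; limma adjusted p 0.00128). CBS (chr21:44473301-44496472), the first enzyme on the route from homocysteine to cysteine, stood at 3.60, 3.40 and 2.35 FPKM in F, at 60.1, 61.3 and 37.5 in FSB and at 4.54, 4.48 and 2.42 in F_FSB. The FSB mean was 17.0 times that of F, and the change of 3.69 ± 0.26 (SE; limma adjusted p 8.65e-05) was the largest rise of the 43. CTH, the next enzyme of that route, stood at 0.925, 1.09 and 0.948 FPKM in F, at 3.02, 4.19 and 2.72 in FSB and at 1.05, 1.39 and 1.22 in F_FSB. FSB again stood clear of the other groups at this lower level, with a change of 1.10 ± 0.14 (SE; limma adjusted p 0.000901).

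Proline synthesis went the other way. PYCR1, the last enzyme of the route, stood at 44.5, 41.8 and 48.2 FPKM in F, at 26.8, 31.3 and 10.9 in FSB and at 31.8, 37.1 and 47.9 in F_FSB. Every FSB culture was below every other culture, and replicate 3 was the lowest of all. PYCR1 fell by 1.05 (limma adjusted p 0.0387), and the call was lost without any single F library or FSB replicate 1 (limma adjusted p 0.0522 to 0.0951). It was also lost with no filter on low values, with only the 2 groups compared and with a replicate block (limma adjusted p up to 0.102). ALDH18A1, which makes the precursor of proline and ornithine, ran from 32.0 to 33.4 FPKM in FSB and 37.7 to 46.9 in F. It fell by 0.34 (limma adjusted p 0.015), a call lost without FSB replicate 1 (limma adjusted p 0.0533) and at the same FPKM sum (limma adjusted p 0.0762).

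Of the 8 amino acid transporters, 7 were higher in FSB than in F, beside 28.5% of all genes tested. SLC7A5 (chr16:87863629-87903100) forms the large neutral amino acid exchanger LAT1 with SLC3A2. It stood at 3.86, 2.12 and 2.73 FPKM in F, at 35.8, 40.6 and 21.1 in FSB and at 2.75, 3.02 and 3.42 in F_FSB. The FSB mean was 11.2 times that of F, and the change was 3.07 ± 0.25 (SE; limma adjusted p 0.000156). Its partial copies SLC7A5P1 and SLC7A5P2, whose fragments could be shared with it, reached at most 3.71 and 2.44 FPKM. SLC3A2, the shared heavy chain, stood at 20.6, 15.7 and 18.7 FPKM in F, at 39.0, 44.9 and 34.3 in FSB and at 19.4, 23.6 and 17.0 in F_FSB. It did not overlap between FSB and either other group, with a change of 1.07 ± 0.15 (SE).

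SLC7A11 (chr4:139085248-139163503), the other partner of SLC3A2, imports cystine in exchange for glutamate. It stood at 1.59, 0.603 and 0.433 FPKM in F, at 12.7, 15.3 and 10.0 in FSB and at 2.80, 2.44 and 2.46 in F_FSB. The 3 groups did not overlap, and F_FSB stayed above F. The change was 2.90 ± 0.23 (SE; limma adjusted p 0.000145) from F to FSB and -1.92 ± 0.23 from FSB to F_FSB (limma adjusted p 0.000685). SLC7A1, the arginine and lysine carrier, stood at 5.09, 3.81 and 4.70 FPKM in F, at 19.4, 19.4 and 9.90 in FSB and at 4.01, 3.90 and 4.61 in F_FSB. FSB replicate 3 was low for its group and still above every F and F_FSB culture.

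SLC1A5, a sodium-dependent glutamine carrier, stood at 23.7, 27.6 and 28.1 FPKM in F, at 84.9, 94.1 and 63.0 in FSB and at 25.4, 26.3 and 38.6 in F_FSB. FSB was clear of both other groups, with a change of 1.56 ± 0.19 (SE; limma adjusted p 0.000802). SLC1A4, a carrier of alanine, serine and cysteine, stood at 5.67, 2.72 and 3.14 FPKM in F, at 12.2, 14.7 and 9.85 in FSB and at 7.90, 6.81 and 4.50 in F_FSB. F_FSB overlapped F and lay below FSB, with a change of 1.48 ± 0.26 (SE) from F to FSB. SLC38A2, which imports neutral amino acids and responds to their shortage, ranged from 93.5 to 117 FPKM in FSB and 49.2 to 79.7 in F, and rose by 0.79. That call was lost without FSB replicate 2 (limma adjusted p 0.0553). The glycine carrier SLC6A9 overlapped in all groups (3.09 to 5.67 FPKM in FSB, 2.86 to 9.02 in F).

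**Figure D2:**
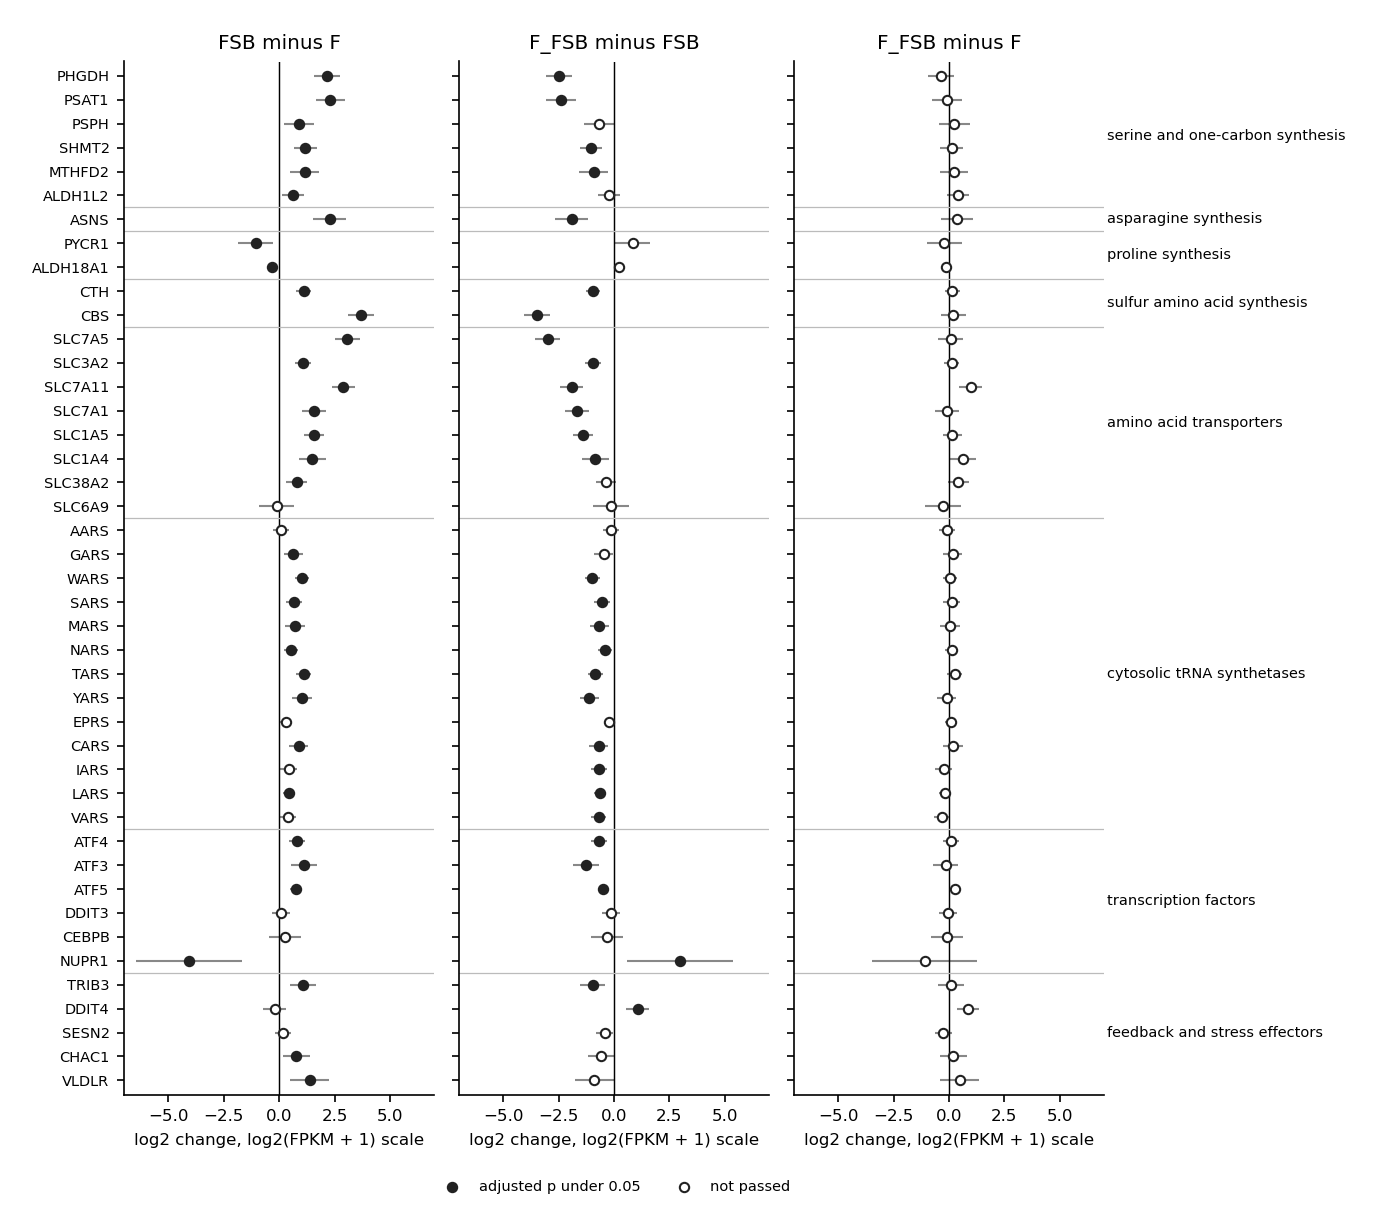
Change of each member on the log2(FPKM + 1) scale with its 95% interval in the 3 comparisons, from 1 fit over 9 libraries; filled points have a limma adjusted p under 0.05. The first panel has 34 filled points, of which 31 lie right of 0, the middle panel 29, of which 27 lie left of 0, and the right panel has none.

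The cytosolic tRNA synthetases, which load each amino acid onto its tRNA, rose by smaller amounts. Of the 13 members, 9 were higher in FSB than in F and none was lower, beside 28.5% and 13.4% of all genes tested. The median change was 0.64, beside 0.14 for all genes. WARS, for tryptophan, stood at 22.9, 22.1 and 26.6 FPKM in F, at 50.7, 59.7 and 41.0 in FSB and at 23.1, 24.3 and 27.0 in F_FSB. TARS, for threonine, stood at 39.5, 34.1 and 34.5 FPKM in F, at 84.0, 91.1 and 62.9 in FSB and at 41.1, 47.8 and 40.5 in F_FSB. YARS, for tyrosine, stood at 20.3, 19.3 and 19.1 FPKM in F, at 45.2, 52.0 and 29.2 in FSB and at 17.5, 20.2 and 17.1 in F_FSB. In each of these 3 genes all FSB cultures were above all others, with FSB replicate 2 the highest and replicate 3 the lowest of the group, and the changes were 1.04, 1.10 and 1.03. CARS, for cysteine, rose by 0.87 (15.2 to 27.6 FPKM in FSB, 10.6 to 11.9 in F).

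The remaining synthetases moved by 0.71 or less. MARS (0.71), SARS (0.67), GARS (0.64), NARS (0.53) and LARS (0.45), for methionine, serine, glycine, asparagine and leucine, passed the test. LARS stood at 22.1, 20.5 and 24.4 FPKM in F, at 32.5, 33.9 and 26.7 in FSB and at 21.4, 19.9 and 17.8 in F_FSB, and its FSB values lay above both other groups. These 5 calls were lost when single libraries were left out: for SARS without FSB replicate 2 (limma adjusted p 0.0509), for NARS without FSB replicate 1 or 2 (limma adjusted p 0.0522 and 0.0573), for LARS and MARS without F replicate 2 or FSB replicate 1 or 2 (limma adjusted p 0.0520 to 0.0599 and 0.0628 to 0.0683), and for GARS without any F replicate or FSB replicate 1 or 2 (limma adjusted p 0.0532 to 0.0806). EPRS, IARS and VARS had changes of 0.31, 0.43 and 0.39 with limma adjusted p of 0.0517, 0.0651 and 0.0722, and passed without FSB replicate 3 (limma adjusted p 0.0191, 0.0242 and 0.0243). EPRS also passed without F replicate 2 (limma adjusted p 0.0370), and IARS and VARS without F replicate 3 (limma adjusted p 0.0336 and 0.0296). AARS, for alanine, which carries the core motif at -187, ran from 30.5 to 47.9 FPKM in FSB and 35.8 to 40.6 in F, with a change of 0.07 and a 95% interval of -0.29 to 0.44.

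Among the effectors that act downstream, TRIB3, a pseudokinase that restrains ATF4, stood at 2.99, 4.15 and 4.29 FPKM in F, at 10.2, 12.2 and 5.71 in FSB and at 3.30, 4.75 and 4.27 in F_FSB. All FSB cultures were above the others, and replicate 3 came nearest to them. TRIB3 rose by 1.06 ± 0.25 (SE; limma adjusted p 0.0112). CHAC1, which degrades glutathione, stood at 1.24, 0.776 and 1.22 FPKM in F, at 2.72, 3.96 and 1.41 in FSB and at 0.957, 1.84 and 1.34 in F_FSB. FSB lay above F but overlapped F_FSB, and the rise of 0.78 (limma adjusted p 0.0447) was lost without any F replicate, FSB replicate 1 or 2, or F_FSB replicate 1 or 3 (limma adjusted p 0.0508 to 0.141). VLDLR, a lipoprotein receptor that ATF4 can induce, ran from 6.12 to 10.9 FPKM in FSB and 1.17 to 4.30 in F, and rose by 1.38. That call was lost without F replicate 1 or 2 or FSB replicate 3 (limma adjusted p 0.0550 to 0.0679).

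SESN2 and DDIT4 encode proteins that restrain mTORC1, and neither passed between FSB and F. SESN2 stood at 4.95, 7.66 and 5.51 FPKM in F, at 6.66, 7.33 and 6.47 in FSB and at 3.92, 5.05 and 5.64 in F_FSB. FSB overlapped F and lay above F_FSB, with changes of 0.17 from F to FSB (95% interval -0.20 to 0.54) and -0.42 from FSB to F_FSB (limma adjusted p 0.0679; 0.0327 without F replicate 2). DDIT4 stood at 12.1, 13.6 and 7.32 FPKM in F, at 7.19, 10.9 and 9.56 in FSB and at 19.5, 18.5 and 22.7 in F_FSB. The F_FSB cultures were the highest, and the change from FSB to F_FSB was 1.07 ± 0.22 (SE; limma adjusted p 0.00634). All 9 members that did not pass between FSB and F had a 95% interval within 1 log2 unit of 0.

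Within FSB the 43 genes kept nearly the same order of cultures. Replicate 2 was the highest of the 3 in 38 of 43 members and replicate 3 the lowest in 36 of 43 (83.7%). Over all genes tested, replicate 2 was the highest in 33.6% and replicate 3 the lowest in 33.7%. The summed FPKM of the members was 1701, 1966 and 1297 in FSB, 871, 875 and 913 in F and 853, 1003 and 944 in F_FSB. Replicate 2 held 2.87 times the PYCR1 of replicate 3, 2.80 times the CHAC1, 2.73 times the ASNS and 2.16 times the PSAT1, but 0.974 times the SLC38A2 and 0.563 times the VLDLR. PYCR1, although lower in FSB than in F, followed the same order of cultures. The 14 markers of proliferation summed to 1041, 1077 and 839 FPKM in the same 3 cultures, so replicate 3 was the lowest there too. The part of proliferation in this order was not tested.

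**Figure D3:**
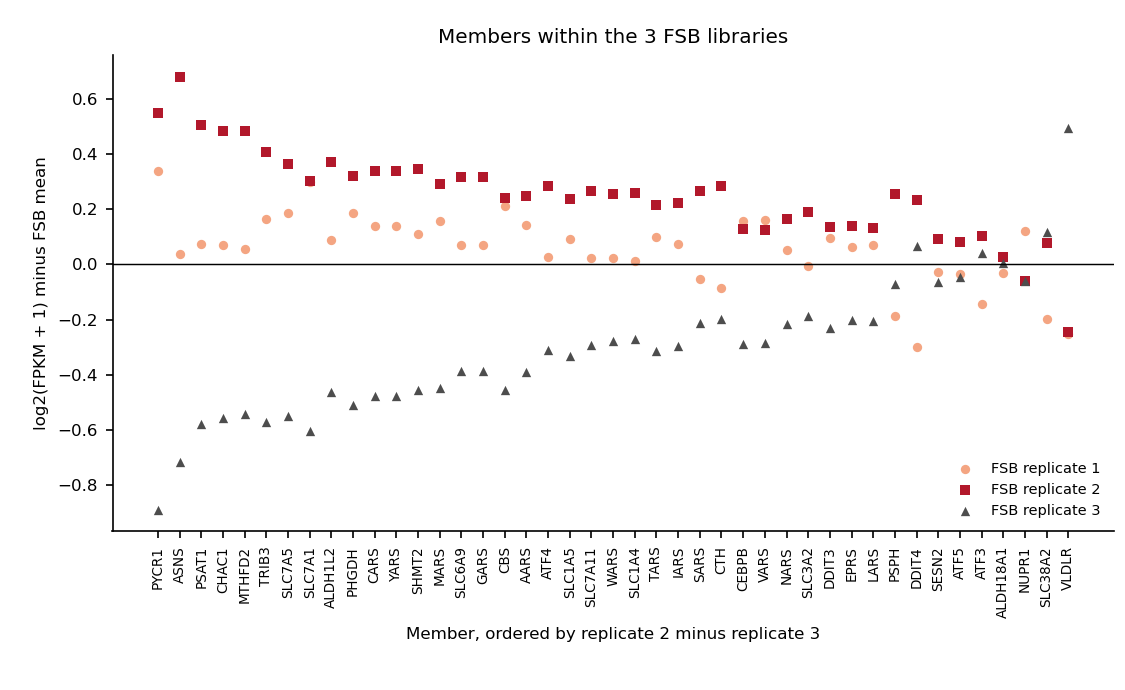
Deviation of each FSB culture from the FSB mean, in log2(FPKM + 1), for the 43 members ordered by replicate 2 minus replicate 3. Squares (replicate 2) are the highest in 38 members and triangles (replicate 3) the lowest in 36, with VLDLR and SLC38A2 at the right end turned round.

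After the move from FSB to F for 3 passages, most of these genes were lower again. Between F_FSB and FSB, 27 of 43 passed as lower, 2 as higher (DDIT4 and NUPR1) and 14 in neither direction. Over all genes tested the shares were 28.2% lower and 13.7% higher. Libraries did not overlap in 28 members that were lower (36.6% of all genes) and 4 that were higher (19.2% of all genes). The median change was -0.68, beside -0.13 for all genes. After median-ratio scaling 21 of 43 members were lower and 2 higher, beside 2497 lower and 2532 higher of the 13216 genes tested. The share of higher among all calls went from 32.7% to 50.3%. After quantile normalization 23 members were lower and 2 higher, beside 2756 and 2318 of all genes tested, and the share was 45.7%. NUPR1 lost its call under both of these scalings, and 1 member not called before took its place. With all libraries at the same FPKM sum 29 members were lower and 2 higher, beside 3456 and 1176 of all genes tested. The share was then 25.4% and the median of all genes was -0.21. That scaling divided F_FSB replicate 2 by 1.30, a library in which 1 locus, MIR4461, held 111389 of the 506146 FPKM. This comparison and that of FSB with F share the FSB libraries, so their values are not independent.

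By role, 4 of 6 serine and folate enzymes, ASNS, CBS and CTH, 6 of 8 transporters, 10 of 13 synthetases, ATF4, ATF3, ATF5 and TRIB3 were lower in F_FSB than in FSB. Over all genes tested 28.2% were lower. CBS fell by 3.49, SLC7A5 fell by 3.00, PHGDH fell by 2.50 and PSAT1 fell by 2.38, the largest decreases of the set. SLC7A1 fell by 1.68 and SLC1A5 fell by 1.40, and YARS fell by 1.13, the most among the synthetases. IARS, which had not passed between FSB and F, fell by 0.67, and VARS, likewise, fell by 0.70. The calls of MTHFD2, SARS, CARS, MARS, NARS and SLC1A4 were lost without FSB replicate 1 or 2 or F_FSB replicate 3. Those of MTHFD2, SARS, CARS, MARS and NARS were also lost without F_FSB replicate 1, those of MARS and SLC1A4 without F_FSB replicate 2, and that of NARS without F replicate 1. The limma adjusted p without these libraries reached 0.103 for MTHFD2, 0.102 for SARS, 0.0708 for CARS, 0.0842 for MARS, 0.126 for NARS and 0.109 for SLC1A4. That of TRIB3 was lost without FSB replicate 1 or 2 (limma adjusted p up to 0.0569).

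Members that did not pass here were PSPH, ALDH1L2, PYCR1, ALDH18A1, SLC38A2, SLC6A9, AARS, GARS, EPRS, DDIT3, CEBPB, SESN2, CHAC1 and VLDLR. PSPH stood at 3.72, 4.94 and 10.7 FPKM in F_FSB, with replicate 3 inside the FSB range, and passed without that culture (-1.04, limma adjusted p 0.0038). PYCR1 and ALDH18A1 had changes of 0.84 and 0.21, with every F_FSB culture above every FSB culture. ALDH18A1 passed without F replicate 3 (limma adjusted p 0.0453) and PYCR1 without FSB replicate 2 (limma adjusted p 0.0466). AARS, GARS, EPRS and CHAC1 passed without FSB replicate 3 (limma adjusted p 0.0299, 0.0138, 0.0370 and 0.0193), and VLDLR without F_FSB replicate 2 (limma adjusted p 0.0454).

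Between F_FSB and F, no member passed in either direction, where 0% of all genes tested passed as higher and 0.00757% (1 gene) as lower with limma. At an unadjusted limma p under 0.05, 4 of 43 members (SLC7A11, DDIT4, ATF5 and SLC1A4) and 1195 of the 13216 genes tested were called. These shares were nearly equal. The median change of the members was 0.10, beside -0.0021 for all genes. With all libraries at the same FPKM sum, which divided F_FSB replicate 2 with its high MIR4461 by 1.30, these were -0.03 and -0.13. Libraries did not overlap in 6 members that were higher in F_FSB (ASNS, SLC7A11, TARS, CARS, ATF5 and DDIT4; 6.28% of all genes) and 1 that was lower (VARS; 6.76% of all genes). SLC7A11 had the largest difference among these members, 0.98 with a 95% interval of 0.45 to 1.5 and a limma adjusted p of 0.419. Without F replicate 1, whose 1.59 FPKM was the highest of its group, the difference was 1.23 with a limma adjusted p of 0.0345. DDIT4 was higher by 0.86 (95% interval 0.34 to 1.37). In 35 of 43 members the 95% interval lay within 1 log2 unit of 0, so larger remaining differences are outside those intervals.

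Other genes of amino acid supply and of the stress pathway were counted from lists drawn up by function. Of 10 other cytosolic synthetases and scaffold proteins of the synthetase complex, 5 were higher in FSB than in F and 0 lower, with AIMP2 going from 9.78 ± 1.20 to 17.4 ± 1.43 FPKM (SD, n = 3) and EEF1E1 from 9.92 ± 1.86 to 20.4 ± 3.13. DARS and FARSB, for aspartate and phenylalanine, rose by 0.51 and 0.61. Of 17 mitochondrial synthetases, 7 were higher and 0 lower, and the median change was 0.21. MARS2 rose by 0.85, YARS2 by 0.52 and TARS2 by 0.32. All genes tested stood at 28.5% higher, so the cytosolic list was above that share at 5 of 10 and the mitochondrial list at 7 of 17.

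Of 28 other ATF4 targets tested, 12 were higher and 2 lower, beside 28.5% higher and 13.4% lower over all genes tested. Their median change was 0.137, beside 0.138 for all genes, and 17 of the 28 changes were positive. By its median the list thus did not move apart from all genes, while its share of higher calls, 12 of 28, was above 28.5%. The genes named next had the smallest adjusted p. PCK2, the mitochondrial enzyme that makes phosphoenolpyruvate, averaged 8.78 ± 2.24 FPKM in the FSB cultures, against 1.62 ± 0.486 in F and 1.88 ± 0.407 in F_FSB (SD, n = 3 each). SLC38A1, a glutamine carrier, went from 9.43 ± 3.38 to 36.2 ± 5.88 and then 18.6 ± 6.34 FPKM. CEBPG, a C/EBP partner of ATF4, rose by 1.06 and NFIL3 by 0.85. The 2 lower genes, SQSTM1 and C6orf48, were picked out after their values were seen. SQSTM1 fell by 0.52 and C6orf48 fell by 0.74. Between F_FSB and FSB, 3 of the 28 were higher and 6 lower, beside 13.7% higher and 28.2% lower over all genes tested.

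Of 13 other folate and glycine genes tested, 6 were higher and 0 lower, with SHMT1, TYMS, MTR and MTHFD1 rising by 1.08, 1.17, 0.57 and 0.67. TYMS, which makes thymidylate, is also among the proliferation markers. Of 9 glutathione and sulfur genes tested, 5 were higher and 1 lower. GGCT, GSR, MAT2B and AHCY rose by 0.97, 0.56, 0.63 and 0.56. Of 8 glutamine and aspartate genes tested, 4 were higher and 0 lower. Only 4 of these 8 changes were positive, with a median of 0.22 beside 0.14 for all genes. For this list and the folate and glutathione lists, the shares over all genes tested were 28.5% higher and 13.4% lower. GLUL, which makes glutamine, went from 34.0 ± 1.80 to 80.8 ± 5.99 FPKM (SD, n = 3), and SLC25A13, the mitochondrial aspartate exporter, from 7.71 ± 1.48 to 24.9 ± 1.33. GOT2 and GLUD1 rose by 0.64 and 0.49.

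Genes that sense stress upstream were counted in the same way. Of 14 genes for eIF2 kinases, phosphatases and the exchange factor eIF2B, 4 were higher and 2 lower in FSB, near the 28.5% higher and 13.4% lower over all genes tested. EIF2B5, the catalytic subunit of eIF2B, rose by 0.65, and EIF2B1 by 0.24. EIF2AK3, the kinase PERK, went from 5.71 ± 0.0949 to 7.89 ± 0.0825 FPKM, while EIF2AK4, the amino acid sensing kinase GCN2, went from 31.1 ± 1.91 to 24.9 ± 1.14 (SD, n = 3). Phosphorylation, by which these kinases act, was not measured. Of 18 genes of the ATF6 and IRE1 branch of the unfolded protein response, 1 was higher and 4 lower. HYOU1, a chaperone of the endoplasmic reticulum, rose by 0.80, and SEL1L fell by 0.53, CRELD2 fell by 0.66 and the sensor ERN1 fell by 0.68. Of 15 genes of amino acid sensing by mTORC1, 3 were higher and 2 lower, which is no more than those shares over all genes. MTOR and RPTOR rose by 0.61 and 0.29, while RRAGC fell by 0.42 and RRAGA fell by 0.29. Picked out after their values were seen, the genes that complete the short counts above were KARS, EIF2B4, MTAP and DEPDC5, higher in FSB, and GSS, IMPACT and EDEM1, lower.

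**Figure D4:**
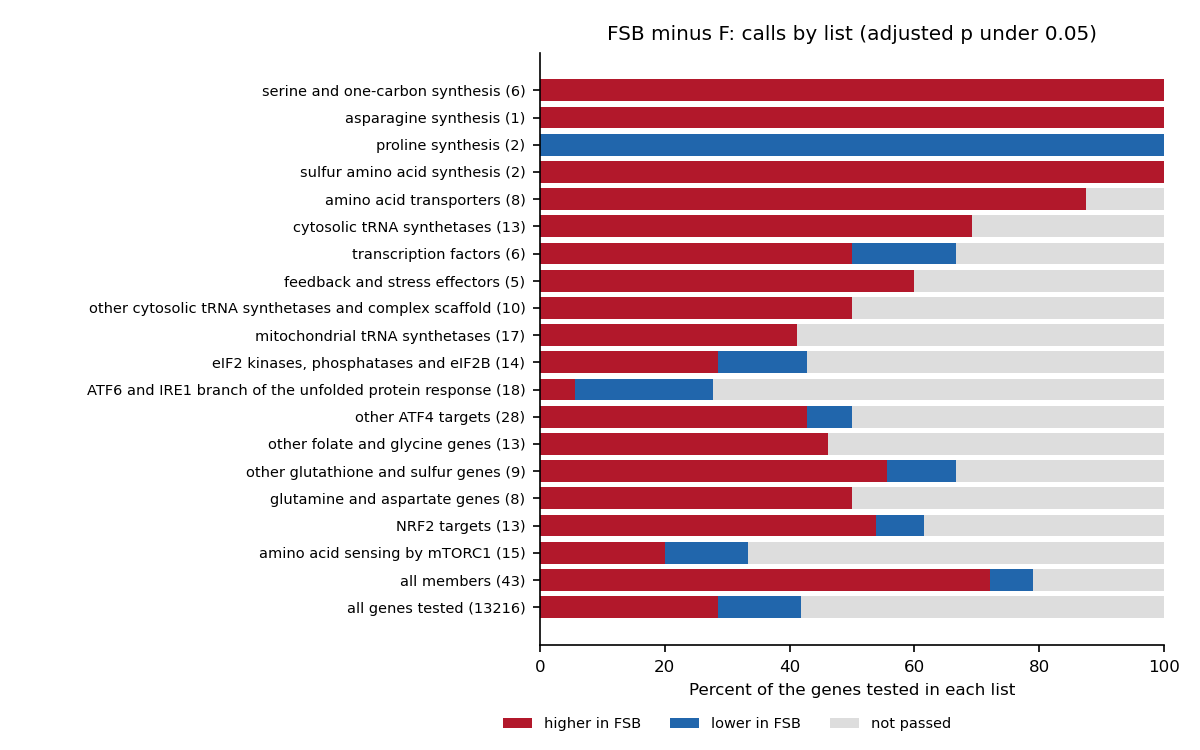
Percent of the tested genes of each list (number in brackets) that were higher (red), lower (blue) or not passed (grey) in FSB against F, with limma at an adjusted p under 0.05. Serine, asparagine and sulfur amino acid synthesis are all red and proline synthesis all blue; 7 of 8 transporters are red, and the ATF6 and IRE1 branch has 1 red and 4 blue of 18.

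Other programmes moved between the same groups. Of 13 NRF2 targets, which answer oxidative stress and include the member SLC7A11, 7 were higher and 1 lower (HMOX1, named after its value was seen) in FSB. The shares over all genes tested were 28.5% higher and 13.4% lower. NQO1 went from 66.7 ± 17.4 to 793 ± 61.9 FPKM, then 173 ± 32.6 (SD, n = 3), and TKT and TXNRD1 rose by 1.48 and 1.57. The 14 proliferation markers were all higher in FSB and all lower in F_FSB, with summed FPKM of 402 to 552 in F, 839 to 1077 in FSB and 324 to 450 in F_FSB. The part of either programme in the changes of the members was not tested.

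Markers of the neural crest were present in part. SOX9, SNAI2, TWIST1 and TFAP2A had group means of at least 15.1 FPKM. SOX10 was at 1.69 or lower, PAX3 at 3.634 or lower and FOXD3 at 0.025 or lower in every library. NGFR, which encodes the sort marker CD271, had mean FPKM of 20.0 in F, 120 in FSB and 4.89 in F_FSB, with 0.725 in F replicate 1. Of the 13 crest markers 10 were tested, and 5 were higher and 1 lower in FSB than in F, beside 28.5% and 13.4% of all genes tested. The lower one was MSX2, whose mean FPKM was 50.8 in F, 3.85 in FSB and 15.3 in F_FSB. SOX8, 1 of the 10, passed the filter on low values only through FSB, so a rise was built into its test. The 13 markers summed to 214 to 276 FPKM in F, 444 to 495 in FSB and 160 to 191 in F_FSB. Of 8 pluripotency markers, LIN28A had a mean of 79.5 FPKM in FSB and the defining factors POU5F1, NANOG and SOX2 did not exceed 1.15. The list summed to 84.6 to 104 FPKM in FSB and at most 7.84 elsewhere. The 5 blood markers summed to 18.8 to 29.3 FPKM in F, 2.23 to 2.99 in FSB and 11.7 to 22.9 in F_FSB. CD34 and RUNX1, the 2 of them that were tested, were both lower in FSB than in F, with mean FPKM in F, FSB and F_FSB of 12.9, 1.18 and 5.13 for CD34 and of 12.8, 1.52 and 11.6 for RUNX1. PTPRC, which defines blood cells, did not exceed 0.0671 FPKM, SPI1 did not exceed 0.0398 and HBG1 was at 0. The 5 epithelial markers summed to 35.5 to 112 FPKM in F, 109 to 206 in FSB and 78.5 to 188 in F_FSB, most of it from KRT8 and KRT18. Of the 3 tested, 2 were higher in FSB than in F (KRT8 and CLDN6), while EPCAM did not exceed 0.788 FPKM and CDH1 did not exceed 0.0353. CLDN6 passed the filter on low values only through FSB, so its call was built in. The 8 neural markers summed to 56.5 to 102 FPKM in F, 93.1 to 137 in FSB and 106 to 144 in F_FSB, most of it from TUBB3, with ELAVL4 and OTX2 at 0. The 5 endothelial markers summed to 2.66 to 5.60 FPKM in F, 3.88 to 4.71 in FSB and 1.40 to 5.14 in F_FSB. CDH5 was higher and TEK lower in FSB than in F, but CDH5 too passed the filter only through FSB. Summed endoderm markers did not exceed 0.394. The part of any of these lists in the changes of the members was not tested. The FPKM sum per library ran from 361026 to 506146, the latter in F_FSB replicate 2, where the locus MIR4461 alone held 111389. Relative depth, estimated from the widths of the deposited intervals, was lowest in F_FSB replicate 2, at 63.7% of the deepest library, and 84.7% or more in the rest. In 5 members (GARS, SHMT2, TARS, PHGDH and NARS) the deposited FPKM lay outside the interval that its own table gives in 1 or more libraries, and in all 9 for GARS, so those intervals are not used here as errors.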

How the data were processed

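RNA sequencing values of 9 libraries, 3 in each of groups F, FSB and F_FSB, were used as deposited. The authors made strand-specific libraries, per the labels' protocols, and deposited 1 table per library with FPKM (fragments normalised to transcript length and to the mapped fragments of the library) per locus and its interval. Alignment and quantification tools, per the submitters' processing notes, were TopHat2 2.0.12 and Cufflinks 2.1.1, on GRCh37. Cufflinks options, strand use and annotation were not stated there. Starts count from 0 in the tables and are given 1-based.

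Loci with a status other than OK in any library (95) were left out, and a gene was tested if 3 or more libraries had an FPKM of at least 1. In R 4.3.3, limma 3.58.1 fitted the 3 group means to log2(FPKM + 1) over the 9 libraries together, with its trend option. Two-sided p-values were adjusted by the Benjamini-Hochberg method over all 13216 genes, with a threshold of 0.05. Changes on this scale understate those of low genes. The fit was run on simulated, normally distributed values in which few genes changed, all upward in FSB. That setting differs from these data, in which many genes were called in both directions. The tables hold no fragment counts, so no count model was used, and relative depth was estimated from interval widths of 6811 genes with FPKM between 5 and 200. Tables were joined and plotted with Python 3.11.15, pandas 2.3.3 and matplotlib 3.10.9.

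The members, lists and tests were chosen with earlier results of these data known. Values in every library are given for the members with the 14 smallest adjusted p in FSB minus F and in F_FSB minus FSB and for ATF4, DDIT3, TRIB3, CHAC1, ASNS and SESN2, and every member may be named. From each other list, up to 4 genes with the smallest adjusted p in FSB minus F among those past the threshold are named. A gene that this rule takes is not reported here. Markers of crest, pluripotent, neural, endodermal, endothelial, epithelial and blood cells and of proliferation were summed. Alternatives were a pseudocount of 0.1, no filter, a filter at 5 FPKM, 3 other scalings, only the 2 groups compared, no trend, a replicate block and leaving out each library.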

Additional observations from a re-analysis of the deposited data

How the results depend on the processing

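No member changed direction past the threshold in any of the 18 alternatives. Of the 31 members higher in FSB than in F, 21 were called in every alternative that tested them, as were 0 of the 3 lower members. The 10 higher calls lost in 1 or more alternatives were those of PSPH, ALDH1L2, SLC38A2, GARS, SARS, MARS, NARS, LARS, CHAC1 and VLDLR, and median-ratio scaling alone ended 7 of them (all but SLC38A2, SARS and VLDLR); the cause was not tested. Of the 27 members lower in F_FSB than in FSB 20 were called in every one, and of the 2 higher 1 (DDIT4). Leaving out 1 library at a time gave 22 to 32 higher and 1 to 3 lower members in FSB against F, with the 1 lower reached without F replicate 2 or FSB replicate 1. It gave 20 to 31 lower and 1 to 2 higher members in F_FSB against FSB, the 1 higher without F replicate 2, FSB replicate 1 or 3 or F_FSB replicate 2 or 3. Members higher in F_FSB against FSB numbered 1 with no filter on low values, 1 with only the 2 groups compared and 1 without the mean-variance trend. Members higher in F_FSB against F numbered 0 to 1 when 1 library was left out, with 1 (SLC7A11) without F replicate 1. The groups share replicate numbers, and with the number as a replicate block 31 members were higher and 2 lower in FSB against F, 2 higher and 26 lower in F_FSB against FSB, and 0 in F_FSB against F. Same-numbered libraries' deviations correlated at 0.067, 0.017 and -0.051 between FSB and F, at -0.013, -0.022 and -0.136 between F_FSB and FSB and at 0.293, -0.027 and 0.099 between F_FSB and F, for replicates 1, 2 and 3. Not every pair was over 0.1, so the numbers were not taken to pair the cultures. The shallower F_FSB replicate 2 gives less precise values for low members such as CHAC1 and CTH.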
